A study of Mus musculus with 12 samples.

Results

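The clustered protocadherins are cell surface adhesion proteins of the cadherin superfamily whose genes lie next to each other in 3 clusters, named alpha, beta and gamma. Their RNA was followed here on 1-colour Agilent arrays of mouse neural stem cells. Members were all gene probes whose name in the scanner files begins with Pcdha, Pcdhb or Pcdhg followed by a number, or by a, b or c and a number. This gave 38 probes for 35 of the 31829 gene names on the array, which has 39429 gene probes. The members were narrowed by a measured value, the scanner software's mark for a signal well above background. A probe counted as detected when it had that mark in every replicate of 1 group or more, which held for 35 of the 38 probes (33 gene names) and for 29972 of all gene probes.

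The neural stem cells came from the cerebral cortex of embryos at E12.5. They form 4 groups with 3 samples each. The shJMJD3 line was stably transfected with the shRNA that the labels call sh2 JMJD3, and it was sampled with transforming growth factor beta (TGFb, 5 ng/ml for 2.5 h) and with vehicle. The shctrl line was stably transfected with an shRNA of random sequence, and it was sampled with the same TGFb dose and with vehicle. The vehicle samples are labelled with treatment none, and the word vehicle comes from the series design. The gene Kdm6b encodes JMJD3, a demethylase of histone H3 that acts on the lysine 27 mark of silenced genes. Each shRNA was present in 1 line, so the knockdown and any other difference between the 2 lines cannot be told apart. Nothing in the labels tells whether replicates were grown as separate cultures, so the p-values reflect the spread among these samples and that spread may be technical.

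In the alpha and gamma clusters each gene name stands for a variable first exon with a promoter of its own, and the transcript splices that exon to exons at the end of the cluster that all its members share. The beta genes have no shared exons and encode whole proteins each. Neurons are known for expressing different combinations of these isoforms, which bind like with like between cells and allow sister branches of 1 neuron to avoid each other. The C-type members at the ends of the alpha and gamma clusters (Pcdhac1, Pcdhac2, Pcdhgc5 and their like) differ in that they are expressed in most neurons rather than chosen cell by cell. Promoter use is known to depend on the architectural protein CTCF and on cohesin, on DNA methylation and on the silencing protein Smchd1.

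Array brightness, taken as the 75th percentile of processed signals, lay between 3175 and 4462 over the 12 arrays, and 0 member spots were saturated. Kdm6b fell by 1.40 on the log2 scale in shJMJD3 cells with TGFb, which is 2.63-fold lower than in shctrl cells with TGFb. With vehicle it fell by 1.16 in shJMJD3 cells, which is 2.24-fold lower. The 10 neural stem and radial glia markers, Nes, Sox2 and Pax6 among them, were well above background on all 12 arrays. Markers of other cell types were mixed. Of the 5 microglia markers Csf1r and Itgam were well above background on 12 arrays, Cx3cr1 on 9, and Aif1 and Tyrobp on 0. Of the 5 endothelial markers Pecam1, Kdr, Tek and Cldn5 were well above background on 12 arrays and Cdh5 on 0.

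Detection differed by cluster. All 22 beta probes were detected, 21 of them on all 12 arrays, with Pcdhb13 on 10. All 7 gamma probes were detected, 4 of them on all 12 arrays, with Pcdhga5 on 11, Pcdhga10 on 7 and Pcdhgb1 on 4. Of the 9 alpha probes 6 were detected, 4 of them on all 12 arrays, with Pcdhac1 on 10 and Pcdha12 on 9. The members that did not qualify were Pcdha4, which was well above background on 1 array, Pcdha11 on 4 arrays, and 1 of the 2 Pcdha8 probes on 0 arrays. Just inside the criterion stood Pcdhgb1, well above background on all 3 arrays of shJMJD3 cells with TGFb, against 1 array of shctrl cells with TGFb and 0 arrays in each vehicle group. Pcdhgc3 and Pcdhgc4 were not analysed here. These are bulk samples, in which fewer cells with a transcript and less of it per cell cannot be told apart.

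The shJMJD3 line was compared with the shctrl line under each treatment. In shJMJD3 cells many beta genes, both probes named Pcdhac2 and Pcdhga1 were higher than in shctrl cells, with TGFb and with vehicle. With TGFb, 16 of the 35 detected probes were higher and 1 was lower by limma at an adjusted p under 0.05, while of all 29972 kept probes 12.2% were higher and 17.2% lower. With vehicle, 15 of the 35 were higher and 0 lower, with 12.8% of all kept probes higher and 15.5% lower. The 15 probes called with vehicle were all called with TGFb too, and Pcdhb3 was the additional one. Over all kept probes 9.9% were higher in both comparisons. The members were chosen with earlier results of these data known, so their counts beside these shares are a description and no test. By the arrays alone, 17 of the 35 lay higher without overlap between the lines with TGFb and 1 lower, beside 16.2% and 23% of all kept probes. With vehicle 21 lay higher and 1 lower, beside 18.3% and 23.5%.

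By cluster, the beta probes gave 13 higher and 0 lower of 22 with TGFb, and 12 higher and 0 lower with vehicle. The alpha probes gave 2 higher of 6 under each treatment. Both carry the name Pcdhac2, but 1 lies at its own exon and the other was read as a probe of the exons shared by all alpha transcripts. The gamma probes gave 1 higher and 1 lower of 7 with TGFb, and 1 higher with vehicle. Those gamma counts are near the shares over all kept probes, 12.2% higher and 17.2% lower with TGFb and 12.8% higher with vehicle. All of these called probes are among the 29 that were well above background on all 12 arrays. The median difference between the lines was 0.39 with TGFb and 0.43 with vehicle for beta, 0.24 and 0.07 for alpha, and 0.15 and -0.01 for gamma on the log2 scale, where the median of all kept probes was -0.02 under each treatment. Over the members on all 12 arrays the median difference was 0.38 and 0.43 for the 21 beta probes. For the 4 alpha probes, which include both Pcdhac2 probes, it was 0.46 and 0.47, and for the 4 gamma probes 0.05 and -0.05. Without any filter on dim probes the median over all 38 members was 0.32 with TGFb and 0.27 with vehicle, beside -0.05 and 0.02 over every gene probe.

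**Figure D1:**
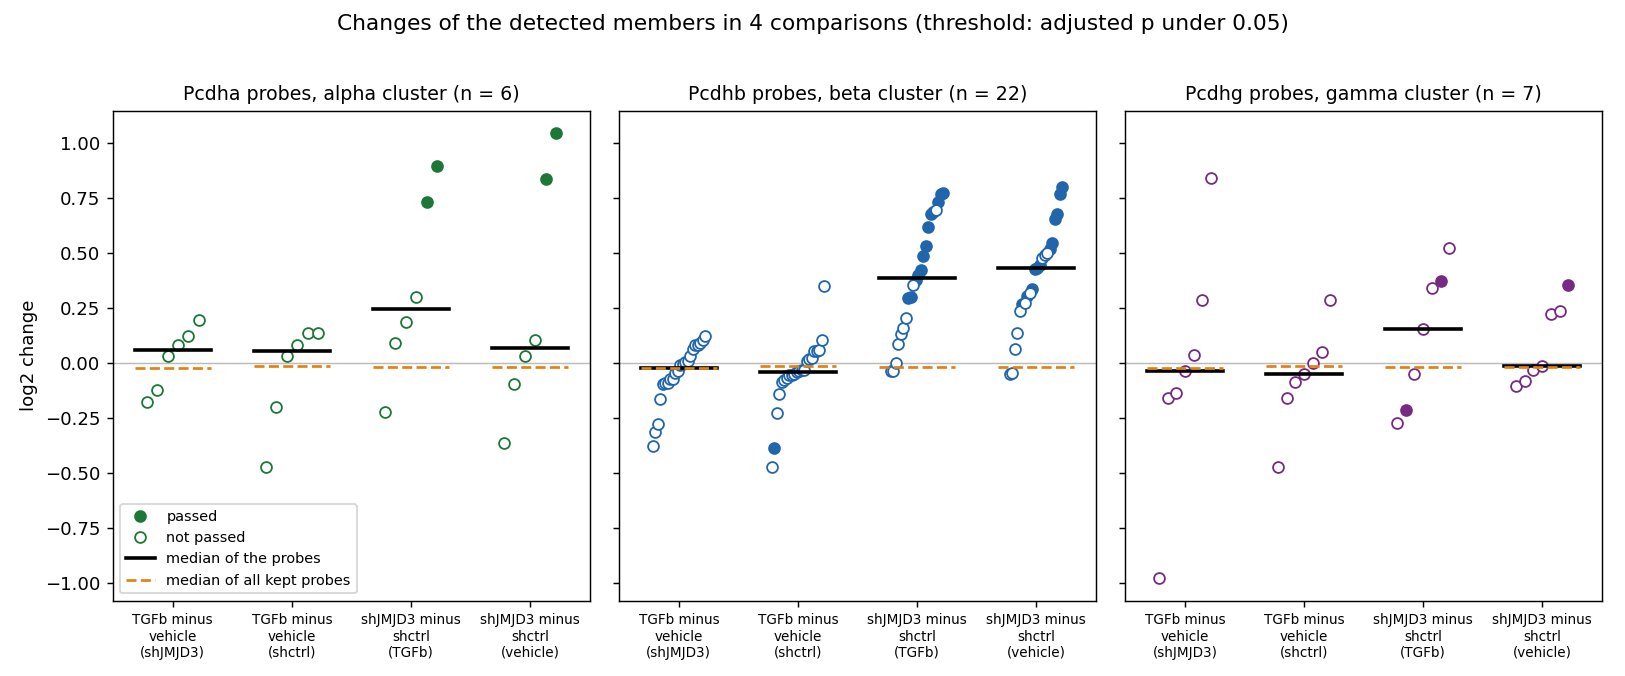
Log2 change of each detected alpha, beta and gamma probe in 4 comparisons, with filled points for an adjusted p under 0.05, a black bar at the median of the probes and a dashed line at the median of all kept probes. The knockdown comparisons lift most of the 22 beta probes and both Pcdhac2 probes above 0, and the TGFb comparisons leave the beta median near 0 (-0.02 in shJMJD3 cells and -0.04 in shctrl cells).

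Pcdhac2, the last variable exon of the alpha cluster and a C-type isoform, had the largest fitted difference of the 35 probes under each treatment. Its own-exon probe (chr18:37305687-37305745, mm9) read -6.42, -6.51 and -6.39 on the log2 scale, relative to the array's 75th percentile, in shJMJD3 cells with TGFb. In shctrl cells with TGFb it read -7.24, -7.36 and -7.41. The 2 sets of arrays do not overlap, and the wide gap between them is far beyond the spread within each. The difference was 0.89 ± 0.13 (SE), a 1.86-fold higher signal, with an adjusted p of 3.55e-04. In vehicle-treated cells the probe read -6.35, -6.27 and -6.35 in shJMJD3 cells, against -7.39, -7.24 and -7.48 in shctrl cells, a difference of 1.05 ± 0.13 (2.07-fold, adjusted p 1.2e-04). Its size depended on the background treatment: with normexp correction, which adds an offset of 50, the differences were 0.21 with TGFb and 0.24 with vehicle and did not pass. In the authors' processed values they were 0.24 and 0.30 and passed.

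The 2nd Pcdhac2 probe (chr18:37347235-37347294, mm9) lies 41.5 kb beyond the first, past the last variable exon, where the exons shared by all alpha transcripts lie. It was taken as a readout of the shared region by this position, since the files name no exon. It read -1.63, -1.68 and -1.69 in shJMJD3 cells with TGFb, against -2.36, -2.45 and -2.39 in shctrl cells with TGFb. With vehicle it read -1.70, -1.67 and -1.73 in shJMJD3 cells, against -2.50, -2.53 and -2.58 in shctrl cells. All 6 arrays of shJMJD3 cells were higher than all 6 of shctrl cells. The differences were 0.73 ± 0.05 with TGFb (1.66-fold, adjusted p 1.52e-06) and 0.84 ± 0.05 with vehicle (1.79-fold, adjusted p 5.74e-07).

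The other alpha probes, each on a variable exon of its own, passed in neither comparison. Pcdha8 differed by 0.09 with TGFb and 0.10 with vehicle, and Pcdha9 by 0.19 and -0.09. Pcdha12 differed by 0.30 and -0.36, and Pcdhac1, the other C-type alpha exon, by -0.22 and 0.03. Their standard errors ran from 0.16 to 0.36, against 0.05 for the shared-region probe, and Pcdha12 and Pcdhac1, the less precise, were not well above background on all arrays.

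Among the beta genes the differences that passed ran from 0.30 to 0.77 with TGFb (1.23-fold to 1.71-fold) and from 0.27 to 0.80 with vehicle (1.20-fold to 1.74-fold). Pcdhb6 read -1.43, -1.48 and -1.57 in shJMJD3 cells with TGFb, against -2.16, -2.33 and -2.31 in shctrl cells with TGFb. It read -1.50, -1.57 and -1.40 in shJMJD3 cells with vehicle, against -1.99, -2.12 and -2.00 in shctrl cells with vehicle. Its arrays are fully separated by line under both treatments. The differences were 0.77 ± 0.07 with TGFb (adjusted p 1.25e-05) and 0.55 ± 0.07 with vehicle (adjusted p 1.48e-04).

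Pcdhb10 read -1.91, -1.97 and -2.14 in shJMJD3 cells with TGFb, against -2.69, -2.60 and -2.58 in shctrl cells with TGFb, a difference of 0.62 ± 0.07 (adjusted p 6.18e-05). The vehicle arrays gave -1.86, -1.88 and -1.99 in shJMJD3 cells, against -2.64, -2.65 and -2.74 in shctrl cells, a difference of 0.77 ± 0.07 (adjusted p 1.23e-05). The lines did not overlap under either treatment. Pcdhb11 read -3.93, -3.97 and -3.94 in shJMJD3 cells with TGFb, against -4.89, -4.72 and -4.54 in shctrl cells with TGFb, a difference of 0.77 ± 0.10 (adjusted p 1.39e-04). For vehicle the values were -3.99, -4.12 and -4.10 in shJMJD3 cells, against -4.62, -4.74 and -4.83 in shctrl cells, a difference of 0.66 ± 0.10 (adjusted p 4.26e-04). Here too every shJMJD3 array was higher than every shctrl array, although the shctrl arrays with TGFb were the more spread. Under normexp the vehicle difference of Pcdhb11 was 0.44 and passed.

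Pcdhb15 read -4.51, -4.57 and -4.45 in shJMJD3 cells with TGFb, against -5.27, -5.09 and -5.20 in shctrl cells with TGFb. The vehicle arrays gave -4.39, -4.44 and -4.59 in shJMJD3 cells, against -5.16, -5.19 and -5.11 in shctrl cells. The lines were separated by about the same amount under both treatments, and the difference was 0.68 ± 0.09 in each (adjusted p 1.66e-04 with TGFb and 1.66e-04 with vehicle). With TGFb it was 0.41 under normexp and 0.42 in the authors' processed values, and passed in both. Pcdhb9 differed by 0.69 ± 0.17 with TGFb (adjusted p 0.0114) and 0.80 ± 0.17 with vehicle (adjusted p 0.00497). Under normexp its differences were 0.25 and 0.34, which did not pass, and in the authors' processed values 0.27 and 0.39, which passed.

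Pcdhb21 and Pcdhb22 stand at the gamma end of the beta cluster. Pcdhb21 read -0.31, -0.55 and -0.55 in shJMJD3 cells with TGFb, against -1.04, -1.25 and -1.32 in shctrl cells with TGFb, a difference of 0.73 ± 0.11 (adjusted p 4.41e-04). For vehicle the values were -0.60, -0.22 and -0.33 in shJMJD3 cells, against -0.69, -0.89 and -0.85 in shctrl cells, a difference of 0.43 ± 0.11 (adjusted p 0.0118). The lines are clearly apart with TGFb and only just apart with vehicle, where replicate 1 of the shJMJD3 cells lies closest to the shctrl arrays. Without replicate 2 of the shJMJD3 cells with vehicle the vehicle difference was 0.35 with an adjusted p of 0.0512. Pcdhb22 differed by 0.53 ± 0.06 with TGFb (adjusted p 3.84e-05) and 0.45 ± 0.06 with vehicle (adjusted p 1.37e-04).

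The remaining beta genes that passed had smaller differences. Pcdhb4 differed by 0.49 with TGFb and 0.52 with vehicle, and Pcdhb14 by 0.42 and 0.43. Pcdhb7 differed by 0.30 and 0.34, and these were 0.21 and 0.24 under normexp and 0.18 and 0.25 in the authors' processed values, where neither passed. Pcdhb3 differed by 0.38 with TGFb (adjusted p 0.00659) and by 0.24 with vehicle (adjusted p 0.0624), with non-overlapping arrays under both treatments. With slide as a fixed block the vehicle difference passed (adjusted p 0.0479), and under normexp the difference with TGFb was 0.24 and passed. The difference between those 2 values was 0.14 ± 0.12 with an adjusted p of 0.964, so the call with TGFb alone does not show that Pcdhb3 differs between treatments.

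Pcdhb17 and Pcdhb5 were near the threshold. Pcdhb17 differed by 0.40 with TGFb (adjusted p 0.00895) and 0.30 with vehicle (adjusted p 0.0362). The vehicle call was lost when any of 5 arrays was left out, namely replicates 1 and 2 of shJMJD3 cells with vehicle, replicate 3 of shJMJD3 cells with TGFb, and replicates 2 and 3 of shctrl cells with vehicle, with differences from 0.24 to 0.32. Pcdhb5 differed by 0.30 with TGFb (adjusted p 0.0288) and 0.27 with vehicle (adjusted p 0.0479). The call with TGFb was lost without replicate 1 or 2 of shJMJD3 cells with TGFb or replicate 2 or 3 of shctrl cells with TGFb. The vehicle call was lost without any of 10 of the 12 arrays, all but replicate 1 of shJMJD3 cells with TGFb and replicate 1 of shctrl cells with vehicle. In these fits the difference stayed between 0.24 and 0.32. Under normexp Pcdhb5 differed by 0.16 with TGFb and 0.17 with vehicle and Pcdhb17 by 0.26 with vehicle, and none of these passed.

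**Figure D2:**
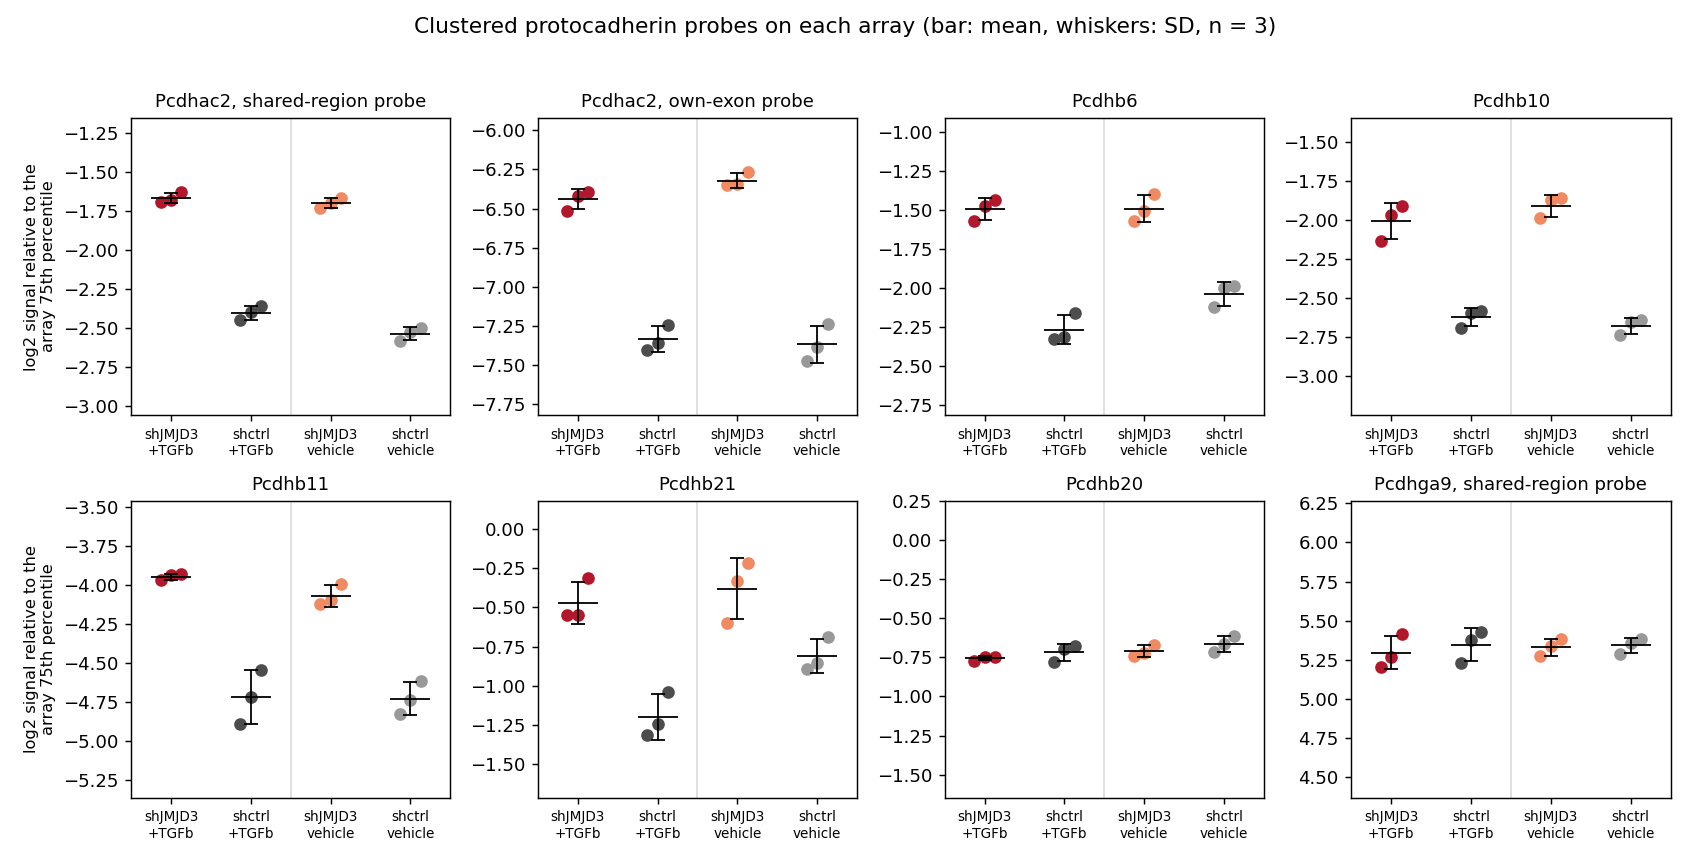
Log2 signal on each of the 12 arrays, scaled by the array's 75th percentile, for 8 member probes, with points for arrays, a bar for the mean and whiskers for the SD of 3 arrays. Every vertical axis spans the same log2 range. For both Pcdhac2 probes, Pcdhb6, Pcdhb10, Pcdhb11 and Pcdhb21 the shJMJD3 arrays lie above the shctrl arrays under each treatment, and for Pcdhb20 and the more distant of the shared-region Pcdhga9 probes the groups overlap.

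The other beta genes did not pass. Pcdhb18 and Pcdhb20 had standard errors of 0.06 and 0.05, at the low end of those of the genes that passed (0.06 to 0.17). Pcdhb20 read -0.75, -0.77 and -0.75 in shJMJD3 cells with TGFb, against -0.78, -0.68 and -0.70 in shctrl cells with TGFb. The vehicle arrays gave -0.74, -0.67 and -0.72 in shJMJD3 cells, against -0.61, -0.71 and -0.67 in shctrl cells. The groups overlap throughout. The difference for Pcdhb20 was -0.04 with TGFb (95% interval -0.14 to 0.07) and -0.05 with vehicle (-0.15 to 0.06). For Pcdhb18 it was -0.04 with TGFb (-0.17 to 0.10) and 0.06 with vehicle (-0.07 to 0.20). These intervals leave out 0.30 with TGFb and 0.27 with vehicle, the smallest differences that passed among beta genes.

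Pcdhb16 differed by 0.13 with TGFb and 0.14 with vehicle, with non-overlapping arrays under both treatments and adjusted p of 0.0909 and 0.0805. Pcdhb12 differed by 0.36 with TGFb (adjusted p 0.0507) and 0.32 with vehicle (adjusted p 0.0805). The arrays of Pcdhb12 overlapped with TGFb and not with vehicle, and with slide as a fixed block it passed in both comparisons, at 0.25 (adjusted p 0.0272) and 0.32 (adjusted p 0.00529). Pcdhb1, Pcdhb2, Pcdhb8 and Pcdhb13 were measured less precisely, with standard errors of 0.17 to 0.34. Pcdhb13 differed by 0.70 with TGFb and 0.50 with vehicle, and Pcdhb8 by 0.16 and 0.49. Pcdhb2 differed by 0.09 and 0.48, and Pcdhb1 by 0.00 and 0.27. With vehicle the lines did not overlap for Pcdhb2 (adjusted p 0.0792), Pcdhb8 (adjusted p 0.0521) and Pcdhb13 (adjusted p 0.338), and they overlapped for all 4 with TGFb. With slide as a fixed block Pcdhb8 passed with vehicle (adjusted p 0.0124). Pcdhb19 differed by 0.20 with TGFb and -0.04 with vehicle.

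In the gamma cluster 1 of the 7 probes passed as higher under each treatment, beside 12.2% and 12.8% of all kept probes. This was Pcdhga1, the variable exon nearest the beta cluster, which read -4.56, -4.42 and -4.46 in shJMJD3 cells with TGFb, against -4.78, -4.92 and -4.86 in shctrl cells with TGFb, a difference of 0.38 ± 0.08 (adjusted p 0.0059). The vehicle arrays gave -4.38, -4.21 and -4.43 in shJMJD3 cells, against -4.71, -4.69 and -4.70 in shctrl cells, a difference of 0.35 ± 0.08 (adjusted p 0.00858). The lines did not overlap under either treatment, though the vehicle difference was 0.16 with an adjusted p of 0.142 under normexp. The other own-exon gamma probes did not pass. Pcdhga5 differed by 0.34 with TGFb and 0.22 with vehicle, Pcdhga10 by -0.27 and 0.23, and the C-type Pcdhgc5 by 0.15 and -0.08. Their standard errors were between 0.25 and 0.38, so only large differences could have been detected. Pcdhga5 with TGFb was 0.59 with slide as a fixed block and passed (adjusted p 0.0497). Pcdhgb1 was well above background on 0 arrays of both vehicle groups, so no difference between the lines is given there. With TGFb, where 1 shctrl array had that mark, its fitted difference of 0.52 did not pass (adjusted p 0.248).

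Both probes named Pcdhga9 lie beyond the Pcdhgc5 probe, 20.5 kb and a further 1.65 kb downstream, where the exons shared by all gamma transcripts lie. They were therefore read as probes of the shared region and not of Pcdhga9 itself. The more distant one (chr18:38001378-38001437, mm9) read 5.41, 5.27 and 5.21 in shJMJD3 cells with TGFb, against 5.43, 5.38 and 5.23 in shctrl cells with TGFb. For vehicle the values were 5.27, 5.34 and 5.38 in shJMJD3 cells, against 5.29, 5.38 and 5.36 in shctrl cells. The groups overlap fully. The difference was -0.05 with TGFb (95% interval -0.19 to 0.10) and -0.01 with vehicle (-0.16 to 0.13).

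The nearer shared gamma probe (chr18:37999725-37999784, mm9) read -0.15, -0.27 and -0.44 in shJMJD3 cells with TGFb. In shctrl cells with TGFb it read -0.08, 0.00 and -0.15, so that the groups came within rounding of each other without crossing. For vehicle the values were -0.14, -0.16 and -0.09 in shJMJD3 cells, against -0.08, 0.04 and -0.04 in shctrl cells, again just apart. It was the 1 member called lower, by -0.21 ± 0.07 with an adjusted p of 0.0407, and with vehicle it differed by -0.10 (adjusted p 0.347). This call was lost when any of 8 arrays was left out, namely replicates 2 and 3 of shJMJD3 cells with TGFb, all 3 replicates of shJMJD3 cells with vehicle, replicates 1 and 2 of shctrl cells with TGFb and replicate 3 of shctrl cells with vehicle. Without replicate 3 of shJMJD3 cells with TGFb the difference was -0.14 with an adjusted p of 0.161.

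Mean levels per array over the probes well above background on all 12 arrays show the same order. The 21 beta probes averaged -3.26, -3.26 and -3.33 in shJMJD3 cells with TGFb, against -3.61, -3.70 and -3.67 in shctrl cells with TGFb. They averaged -3.25, -3.20 and -3.28 in shJMJD3 cells with vehicle, against -3.56, -3.66 and -3.68 in shctrl cells with vehicle. All 6 shJMJD3 arrays were above all 6 shctrl arrays. The 4 alpha probes, 2 of which are Pcdhac2 probes, averaged -4.66, -4.58 and -4.49 in shJMJD3 cells with TGFb, against -4.92, -5.15 and -5.09 in shctrl cells with TGFb. With vehicle they averaged -4.53, -4.55 and -4.73 in shJMJD3 cells, against -5.03, -5.04 and -5.17 in shctrl cells. The 4 gamma probes overlapped between the lines, at -1.45, -1.27 and -1.40 in shJMJD3 cells with TGFb, against -1.28, -1.58 and -1.45 in shctrl cells with TGFb.

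**Figure D3:**
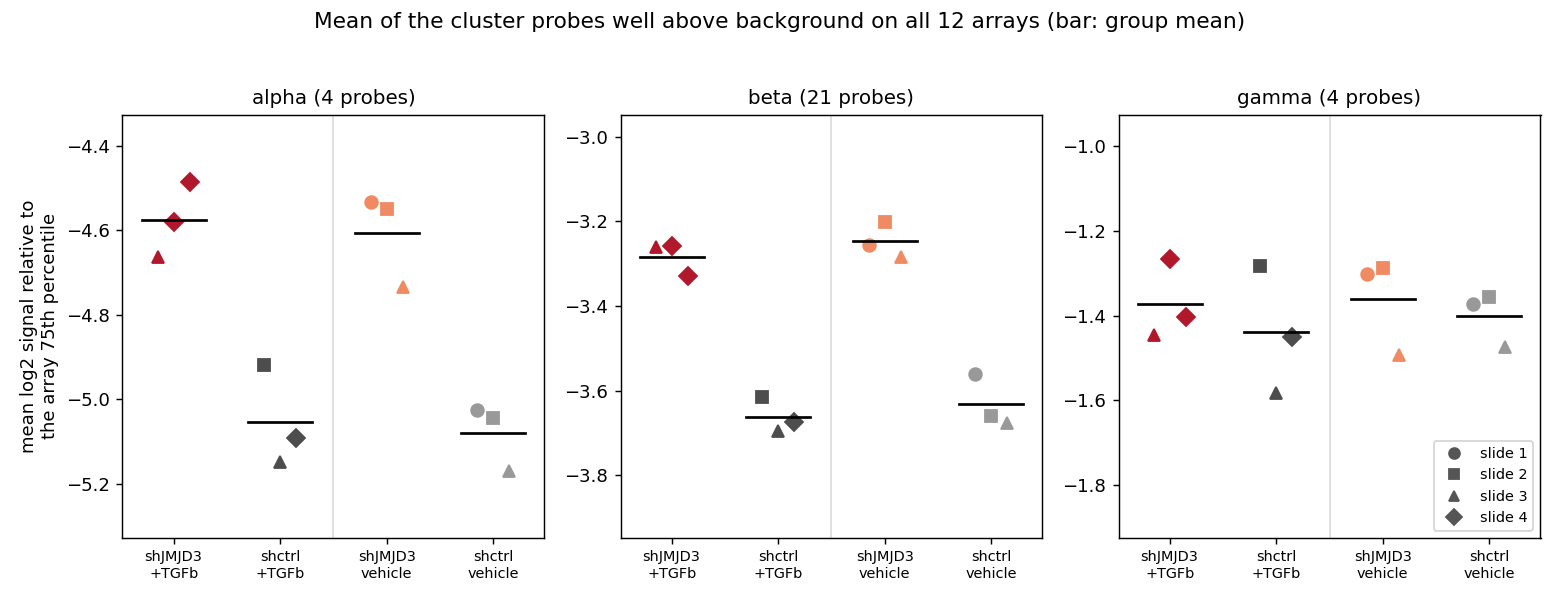
Mean log2 signal, scaled by the array's 75th percentile, of the alpha (4), beta (21) and gamma (4) probes well above background on all 12 arrays, with 1 point per array, marker shapes for the 4 slides and a bar for each group mean. The alpha and beta means of every shJMJD3 array lie above those of every shctrl array, which fixes the order within slides. The gamma means overlap.

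The 12 arrays lay on 4 slides, and in 12 of 12 pairs of arrays on the same slide the arrays deviated together from their group means. Slide was tested as a batch for this reason. Comparing shJMJD3 with shctrl arrays on the same slide, the beta median was 0.51 on slide 3 and 0.37 on slide 4 with TGFb, and 0.27, 0.49 and 0.42 on slides 1, 2 and 3 with vehicle. For all 16 probes called higher with TGFb, and all 15 called with vehicle, the arrays did not overlap between the lines. Their same-slide differences had to be positive for this reason, and so are no check on the slide. They ran from 0.23 to 1.02 on the 2 slides with TGFb and from 0.09 to 1.12 on the 3 slides with vehicle. With slide as a fixed block 18 members were called higher and 1 lower with TGFb, adding Pcdhb12 and Pcdhga5, and 18 higher and 0 lower with vehicle, adding Pcdhb3, Pcdhb8 and Pcdhb12. The block raised the shares over all kept probes too. They were 17.7% higher and 20.2% lower with TGFb, and 16.9% and 21.9% with vehicle.

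The members span 886.6 kb of chromosome 18 from the first to the last probe. The probes called higher lie between the Pcdhac2 own-exon probe and Pcdhga1, interleaved with ones that did not pass, and the 1 probe called lower, the nearer shared gamma probe with TGFb, lies near the far end. Pcdhb3 to Pcdhb7 all passed with TGFb, as did Pcdhb9 to Pcdhb11, while Pcdhb18, Pcdhb19 and Pcdhb20, which lie between Pcdhb17 and Pcdhb21, did not. Taf7, which encodes a subunit of the general transcription factor TFIID and lies between the beta and gamma clusters, differed by 0.80 ± 0.08 with TGFb (adjusted p 3.38e-05) and 0.89 ± 0.08 with vehicle (adjusted p 1.51e-05). Its other probe differed by 0.68 and 0.66. Slc25a2, the mitochondrial carrier gene beside Taf7, differed by -0.11 and -0.18 and did not pass. The member probes, about 60 bases long, shared little sequence with each other. No pair matched at more than 29 aligned bases, and the longest run in common within a cluster was 12 bases. Probes were compared only with other probes, so whether a probe also binds the transcript of another member was not tested.

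**Figure D4:**
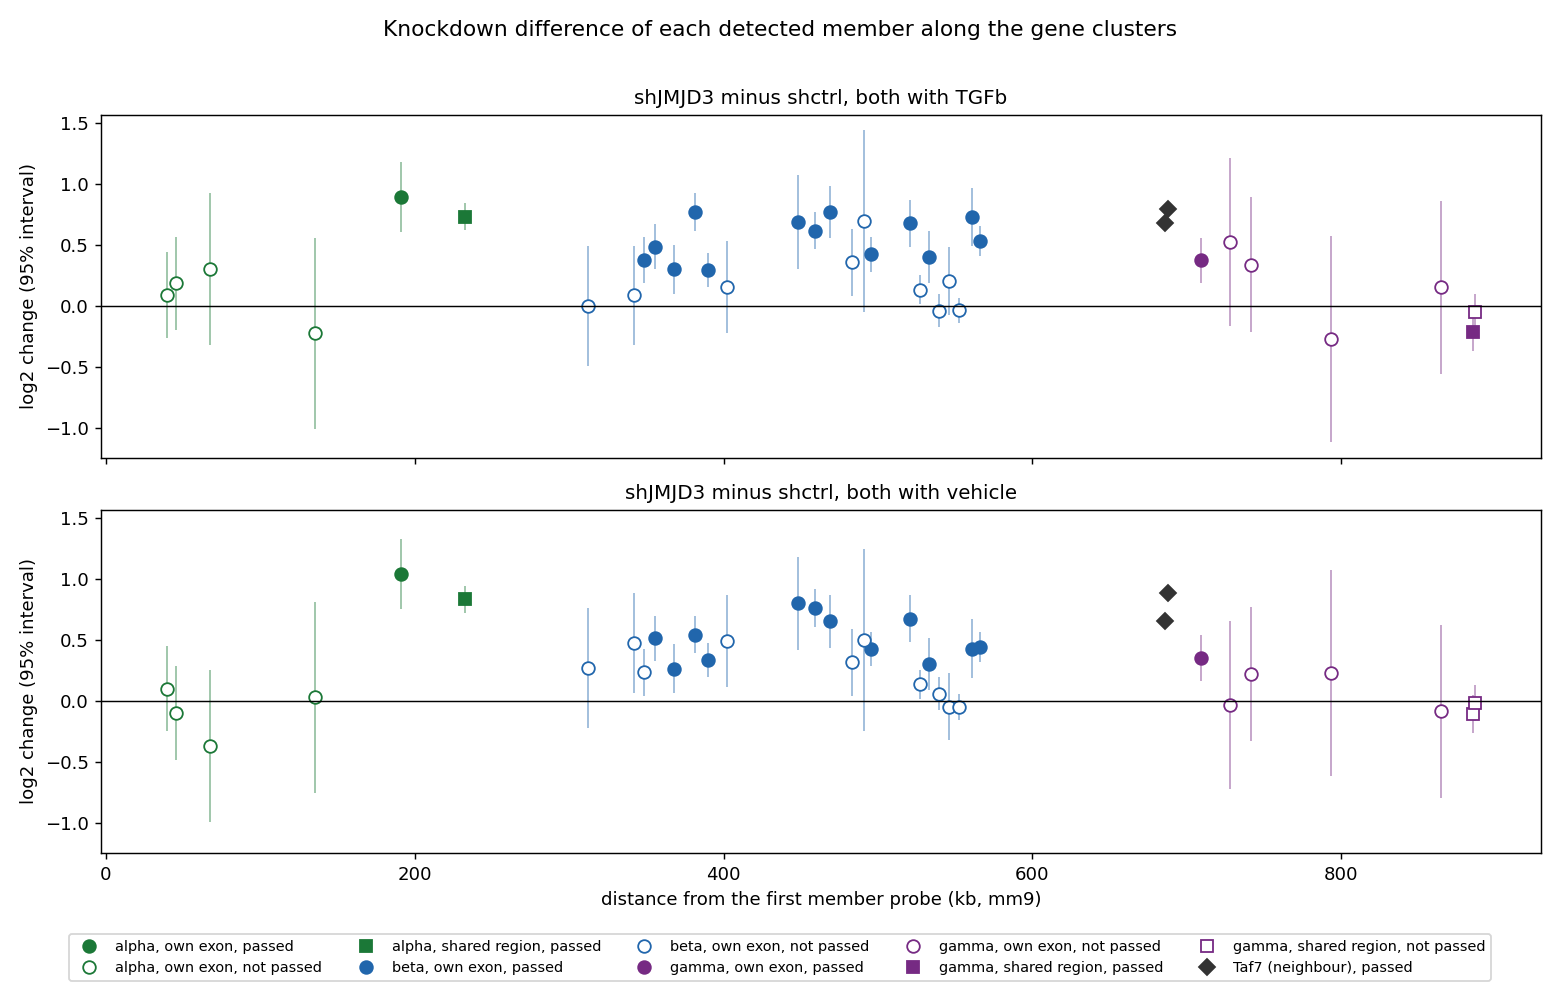
Log2 difference between shJMJD3 and shctrl cells for each detected member against its distance from the first member probe in kb, with TGFb above and with vehicle below. Bars are 95% intervals, filled symbols passed the threshold, squares are probes of the shared alpha and gamma regions, and diamonds are the 2 probes of the neighbouring gene Taf7. Members called higher run from the Pcdhac2 probes to Pcdhga1, and of the shared gamma probes at the far end the nearer one was called lower with TGFb (-0.21).

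The response to TGFb itself was examined in each line. Arrays with vehicle lay on slides 1, 2 and 3 in each line. Those with TGFb lay on slides 2, 3 and 4 for shctrl cells, and on 3 and 4 for shJMJD3 cells. Both treatments shared 1 slide in shJMJD3 cells and 2 in shctrl cells, so TGFb and slide are partly confounded. In shJMJD3 cells 0 of the 35 detected members changed with TGFb, beside 9.13% of all kept probes, and 3 members had an unadjusted p under 0.05, beside 19.9%. The smallest adjusted p was 0.149. In shctrl cells 1 member changed and was lower, beside 9.93% of all kept probes changed and 4.63% lower, and 3 had an unadjusted p under 0.05, beside 19%. The median response of the beta probes was -0.02 in shJMJD3 cells and -0.04 in shctrl cells. For the 21 beta probes on all 12 arrays the responses ran from -0.38 to 0.12 in shJMJD3 cells and from -0.39 to 0.35 in shctrl cells.

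The member that changed was Pcdhb21, by -0.39 ± 0.11 in shctrl cells with an adjusted p of 0.0467. It read -1.04, -1.25 and -1.32 in shctrl cells with TGFb, against -0.69, -0.89 and -0.85 in shctrl cells with vehicle, which do not overlap. In shJMJD3 cells its response was -0.09 (95% interval -0.33 to 0.15). The response in shctrl cells was lost as a call without any of 8 arrays, namely replicates 2 and 3 of shJMJD3 cells with TGFb, replicate 3 of shJMJD3 cells with vehicle, replicates 2 and 3 of shctrl cells with TGFb and all 3 replicates of shctrl cells with vehicle, with adjusted p from 0.0598 to 0.171. With slide as a fixed block it was -0.34 (adjusted p 0.0676). Pcdhb6 in shctrl cells gave -0.23 (adjusted p 0.067), with arrays that did not overlap. The shared-region Pcdhac2 probe gave 0.03 in shJMJD3 cells (95% interval -0.08 to 0.14) and 0.14 in shctrl cells (0.02 to 0.25, adjusted p 0.144).

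The fitted TGFb responses in shJMJD3 cells were widest for a pair of gamma probes that were not well above background on all arrays. Pcdhga10 gave -0.98 ± 0.38 in shJMJD3 cells (adjusted p 0.174) and -0.47 ± 0.38 in shctrl cells (adjusted p 0.638). Pcdhgb1 was marked as well above background on all 3 arrays of shJMJD3 cells with TGFb and on 0 arrays of shJMJD3 cells with vehicle. Because Pcdhgb1 was not well above background there, only a bound can be given, of at least 1.23-fold higher with TGFb in shJMJD3 cells. The fitted response was 0.84 with an adjusted p of 0.149. It entered the tests through the group where it was high, so this value supports no call.

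Whether TGFb acted differently in the 2 lines was tested as the difference of the TGFb responses, under the same limit of slides. It passed for 0 of the 35 members, beside 0.0734% of all kept probes, and 1 member, Pcdhb6, had an unadjusted p under 0.05, beside 5.03%. Pcdhb6 gave 0.23 ± 0.10 (95% interval 0.01 to 0.44, adjusted p 0.964), and Pcdhb21 gave 0.30 ± 0.15 (-0.04 to 0.64, adjusted p 0.964). The largest values were those of probes not well above background on all arrays, among them 0.67 ± 0.40 for Pcdha12 (adjusted p 0.964). For the 21 beta probes on all 12 arrays the 95% intervals reached from -0.97 to 0.64 in all, so differences of response of the size of the line difference could not be detected for the less precise members.

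Regulators known to act on these promoters were listed, 21 in all and all tested. Between the lines, 2 were higher and 3 lower with TGFb, and 3 higher and 3 lower with vehicle, with list medians of -0.05 and 0.04. These counts are near the shares over all kept probes, 12.2% higher and 17.2% lower with TGFb and 12.8% and 15.5% with vehicle. Rest, a repressor of neuronal genes, differed by -0.54 with TGFb and -0.60 with vehicle. Dnmt3b, the DNA methyltransferase that methylates these promoters in the early embryo, differed by -0.52 and -0.42. The cohesin subunit Stag1 differed by -0.35 and -0.26, and the cohesin regulator Pds5b by 0.22 and 0.27. In response to TGFb 1 of the 21 was higher in shJMJD3 cells and 2 in shctrl cells, with 0 lower in each. Of all kept probes 9.13% and 9.93% changed in either direction. The DNA methyltransferase Dnmt3a was higher with TGFb, by 0.34 in shJMJD3 cells and 0.65 in shctrl cells, and Smchd1 was higher by 0.21 in shctrl cells. The part of any of these in the protocadherin differences was not tested.

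Of 21 intracellular partners and proteases of the protocadherins 20 were tested, with 7 higher and 2 lower between the lines with TGFb and 9 higher and 2 lower with vehicle. Over all kept probes 12.2% were higher and 17.2% lower with TGFb, and 12.8% and 15.5% with vehicle. The list medians were 0.12 with TGFb and 0.10 with vehicle. Cyfip2 of the WAVE actin regulatory complex, to which alpha tails bind, was higher in shJMJD3 cells by 0.66 and 0.72. Prkca, a protein kinase C gene whose family acts downstream of the gamma proteins, was higher by 0.58 and 0.79, and the kinase Fyn by 0.32 and 0.35. Ptk2, the focal adhesion kinase that the shared tails inhibit, was higher by 0.29 and 0.38, while Abi2, another WAVE complex member, differed by -0.53 and -0.44.

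Genes on either side of the clusters did not move one way. Of 15 neighbours, 3 were higher and 4 lower in shJMJD3 cells with TGFb, and 3 higher and 4 lower with vehicle, with list medians of -0.12 and -0.11. The shares over all kept probes were 12.2% higher and 17.2% lower with TGFb, and 12.8% and 15.5% with vehicle. Besides Taf7, those higher were Arap3, by 0.35 and 0.32, and Rell2, by 0.33 and 0.28, which lie beyond the gamma cluster. On the alpha side Wdr55, a gene for a WD repeat protein, differed by -0.995 with TGFb and -0.87 with vehicle, and Hars, a histidyl-tRNA synthetase, by -0.40 and -0.28.

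Markers of neurons, the cells in which these isoforms are best known, were measured beside the members. Of 8 markers 7 were tested. With TGFb, 3 were higher in shJMJD3 cells, namely Syt1 by 1.26, Dcx by 0.91 and Map2 by 0.17, and Rbfox3 differed by -1.28. With vehicle Dcx was higher by 1.13 and Syt1 by 1.06, and Rbfox3 differed by -1.28. Beside these counts, 12.2% of all kept probes were higher and 17.2% lower with TGFb, and 12.8% and 15.5% with vehicle. The summed signal of the 8 markers, in multiples of the array's 75th percentile, was 12.9 to 14.5 in shJMJD3 cells with TGFb, against 11.89 to 12.47 in shctrl cells with TGFb. With vehicle it was 13.98 to 14.89 in shJMJD3 cells, against 12.8 to 14.6 in shctrl cells. The sums were apart with TGFb and overlapped with vehicle. They rest mostly on Map2 and Snap25, the only markers of this list with group means above the array's 75th percentile. Dcx and Syt1 were far dimmer and weigh little in them. Stmn2, the marker not tested, was well above background on 4 arrays. Its mean was -7.89 in shJMJD3 cells against -9.90 in shctrl cells with TGFb, and -8.05 against -10.15 with vehicle. The part of these markers in the protocadherin differences was not tested.

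Among neural stem cell markers Sox2 was higher in shJMJD3 cells by 0.56 with TGFb and 0.74 with vehicle, Slc1a3 by 0.71 and 0.68 and Hes5 by 0.64 and 0.78. Nes differed by -0.25 and -0.33. In all, 3 of the 10 were higher and 1 lower with TGFb, and 4 higher and 2 lower with vehicle. Beside these counts, 12.2% of all kept probes were higher and 17.2% lower with TGFb, and 12.8% and 15.5% with vehicle. The summed signal of the 10 markers was 257 to 277 in shJMJD3 cells with TGFb, against 230 to 254 in shctrl cells with TGFb. With vehicle it was 236 to 264 in shJMJD3 cells, against 245 to 263 in shctrl cells. The astrocyte marker Gfap was higher by 0.50 and 0.98, and Pdgfra of the oligodendrocyte lineage differed by -1.79 and -1.97. The part of these markers in the protocadherin differences was not tested.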

How the data were processed

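RNA of 12 samples in 4 groups of 3 was hybridised to 1-colour Agilent arrays. Per the labels, 500 ng of total RNA was amplified with oligo-dT priming and the product carried Cy3. The scanner software, per the file headers, was Agilent Feature Extraction 10.7.3.1, with positions on mm9. The processed signal is an intensity, corrected for background by the scanner software, per the file headers. The authors also deposited a table of log2 values, whose 12 columns each matched their own array. All columns share a median of 7.93, and the steps behind them, background correction and centring included, stay unknown here. Of the 45220 entries 823 were empty.

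Control spots were left out, spots of a probe were averaged, and 4 member spots marked as outliers were set aside. Each processed signal was divided by its array's 75th percentile and put on the log2 scale. The 29972 kept probes were fitted in R 4.3.3 by limma 3.58.1 (lmFit, contrasts.fit, eBayes with a trend), a mean per group, 8 residual and 3.15 prior degrees of freedom, two-sided tests and Benjamini-Hochberg adjustment at 0.05. Where 0 arrays of a group marked a probe as well above background, the bound divides the brighter mean by a floor, the lowest well-above-background signal of an array or the probe's own if that is higher. The pipeline was tested on simulated data. The number of arrays limits the precision.

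Member accessions were matched to a RefSeq table (GRCm38.p6, names only), all 38 of them. The members and gene lists were chosen with earlier results of these data known. Named were Kdm6b, members that passed, the 3 detected probes with the highest mean per cluster, those with the largest change per cluster, C-type members, members with several probes, and up to 4 passing genes of each list, besides members and genes named after their values were seen. Replicates of a group correlated with r of 0.994 to 0.998 across probes.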

Additional observations from a re-analysis of the deposited data

How the results depend on the processing

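Each result was recomputed with normexp background correction, quantile or median scaling, the authors' values, other filters, 1 probe per gene name, slide or replicate blocks, array weights, only the 2 groups compared, and each array left out. No call of a named member reversed (0 of 33), and 8 members were higher under both treatments in every alternative: the shared-region Pcdhac2 probe, Pcdhb4, Pcdhb6, Pcdhb10, Pcdhb11, Pcdhb14, Pcdhb15 and Pcdhb22. Counts of called members ran from 12 to 19 for knockdown with TGFb and 9 to 20 with vehicle over these settings, and from 15 to 18 and 12 to 16 with an array left out. The count of 9 came from normexp, which kept 21 of the 33 calls. The cause was not tested. Over the settings other than leaving out an array, 8.64% to 17.7% of tested probes were higher with TGFb and 9.32% to 16.9% with vehicle. Those lower were 11.8% to 22.9% with TGFb and 8.99% to 21.9% with vehicle. For TGFb in control cells the count of 1 became 0 under normexp, median scaling, the authors' values, no filter, slide as a fixed block and only the 2 groups compared, 2 with array weights, and 0 to 2 with an array left out. For TGFb in knockdown cells array weights gave 2, beside 7.42% of all kept probes higher and 9.98% lower. In control cells these shares were 6.29% and 5.66%. Leaving out an array gave 0 for TGFb in knockdown cells. The difference of responses gave 0 throughout. Within slide 3 the alpha median was 0.20 for TGFb in knockdown cells and 0.51 for knockdown with TGFb, and the beta median 0.047 and 0.51. For knockdown with vehicle the beta median was 0.27 on slide 1 and 0.49 on slide 2. Signal over background limits Pcdha12, Pcdhac1, Pcdhb13, Pcdhgb1, Pcdhga5 and Pcdhga10.

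Samples with the same replicate number share only that number: of 18 such array pairs 6 deviated together from their group means. With the replicate block the counts were 0 and 0 for TGFb in knockdown and control cells, 16 and 14 for knockdown with TGFb and with vehicle, and 0 for the difference of responses, and 29 of the 33 calls were kept. Those lost were Pcdhb21 for TGFb in control cells (-0.39), the nearer shared gamma probe with TGFb (-0.21), and Pcdhb5 and Pcdhb17 with vehicle (0.27 and 0.30). Of all kept probes the replicate block gave 10.9% higher and 15% lower between the lines with TGFb, and 11.4% and 13.3% with vehicle.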

Other observations

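The stretch from the first to the last member probe holds 12 more gene probes that carry other names, 7 of which were kept. Besides the Taf7 probes, 1 probe named only by a transcript accession (chr18:37818019-37818078, mm9), between Taf7 and Pcdhga1, differed between the lines by 0.65 ± 0.10 with TGFb (adjusted p 6.52e-04) and 0.72 ± 0.10 with vehicle (adjusted p 3.57e-04). It was singled out after its values were seen, and which gene it reports is not given in the sources used here.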
